A study of Mus musculus with 16 samples.

Results

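The stem cell signature examined here is a set of 10 genes whose mRNA marks the Lgr5+ stem cells at the base of mouse intestinal crypts, namely Lgr5, Ascl2, Olfm4, Smoc2, Igfbp4, Scn2b, Slc12a2, Tnfrsf19, Cdca7 and Prom1. They were taken by gene symbol from count tables of 52636 genes for crypts, 54532 for KO-IEC organoids and 52636 for KO-CAG organoids, and all 10 were found and passed the low-count filter in each of the 3 tables. The study asked by RNA-seq how loss of Cul4b, the X-linked gene of the cullin scaffold of the CRL4B ubiquitin ligase, affects the small intestine of C57BL/6 mice, in 16 libraries. Crypts were compared between 4 KO-IEC libraries (pVillin-Cre; Cul4b fn/Y) and 4 WT libraries. The study describes this control as Cul4b fn/Y and names no Cre for it. KO-IEC organoids, cultures grown from crypts in Matrigel, were represented by 2 KO libraries of the same genotype and 2 WT libraries. KO-CAG organoids (CAG-CreERT2; Cul4b fn/Y), in which deletion was induced in culture with tamoxifen, were likewise represented by 2 KO and 2 WT libraries. The floxed allele is thus shared by the KO-IEC groups and their WT as described, whereas the sources used here do not say whether the WT cultures of the KO-CAG experiment carried CreERT2 or received the inducer. pVillin drives Cre throughout the intestinal epithelium of the animal, whereas CAG is active in most cell types and the organoids limit the induced deletion to cultured epithelium. Ages are not given in the labels, and no source says how many animals or lines the organoid libraries came from.

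Lgr5+ cells are slender crypt base columnar cells that lie between Paneth cells, divide continuously and give rise to all epithelial lineages. Their identity depends on Wnt ligands and R-spondins, which stabilize beta-catenin so that TCF/LEF factors activate targets such as Lgr5 and Ascl2. As cells leave the base, these transcripts decline while those of transit-amplifying cells and then enterocytes or secretory cells increase. Signature mRNA in a bulk sample thus depends on the share of stem cells among all cells. Members need not be exclusive to stem cells, such as Cdca7, which is induced in cycling cells. A library made from whole crypts or organoids cannot tell apart fewer stem cells, less mRNA per stem cell and less mRNA in other crypt cells. This holds for every result given here.

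The deletion was visible in every library. Levels are in CPM, the counts of a gene relative to the library total after TMM scaling, a correction for library composition. Cul4b averaged 33.8 ± 3.00 CPM in WT and 1.43 ± 0.631 CPM in KO crypts (SD, n = 4 each). Its WT and KO means were 78.1 ± 7.06 and 1.72 ± 0.0485 CPM for KO-IEC organoids and 71.3 ± 1.96 and 4.25 ± 1.31 CPM for KO-CAG organoids (SD, n = 2 each). Total counts per library ran from 9311734 to 13479974 in crypts, 15006730 to 16881395 in KO-IEC organoids and 7348191 to 10462275 in KO-CAG organoids. The floor was set at 3 counts, worth between 0.178 and 0.408 CPM at these depths, and covers counting error only. All libraries carried epithelial transcripts, with 7 epithelial genes including Epcam and Vil1 at a summed 6476 to 11564 CPM. Of other lineages, 6 immune markers summed to 280 to 788 CPM in WT and 162 to 623 CPM in KO crypts. The sum of 6 mesenchymal markers was 4.25 to 7.34 CPM in WT and 1.06 to 4.22 CPM in KO crypts and at most 1.15 CPM in the organoids, and its part in the crypt results was not tested.

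Scaled by gene length, the WT members spanned a wide range of levels. In WT crypts Olfm4 stood far above the others at 961 ± 208 RPKM (CPM per kilobase of gene length, SD, n = 4) and supplied 56.7% of the members' summed CPM. Slc12a2 followed at 93.8 ± 13.5 RPKM, then Cdca7 at 43.3 ± 2.68, Smoc2 at 42.3 ± 5.20 and Prom1 at 30.2 ± 7.39 RPKM. Slc12a2 lay apart from these, while Cdca7 and Smoc2 overlapped in range, as did Smoc2 and Prom1. Igfbp4 at 10.2 ± 1.61 and Ascl2 at 8.88 ± 1.32 RPKM overlapped as well. Below them Scn2b was at 5.45 ± 0.771, Lgr5 at 2.46 ± 0.149 and Tnfrsf19 at 1.54 ± 0.309 RPKM, with no overlap between these 3. Lgr5, the gene that names the cell type, was therefore among the least abundant members of the crypt signature. Olfm4 and Slc12a2 also held the top ranks and Scn2b and Tnfrsf19 the bottom ranks in WT organoids of both experiments, where Lgr5 ranked the seventh in the KO-IEC table and the fifth in the KO-CAG table. The experiments were prepared separately and the gene lengths of Olfm4 and Smoc2 differ between the tables, so levels are not compared across experiments.

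The promoters of 7 members could be read from RefSeq windows of GRCm38.p6, each holding the 250 bases before an annotated start site. Lgr5, Smoc2 and Slc12a2 have no window. The motifs searched on both strands were CTTTGAT and CTTTGAA, the core of TCF/LEF binding sites, and CAGCTG, an E-box of the kind bound by basic helix-loop-helix factors such as Ascl2. Of all 32851 windows, 7.48% held CTTTGAT or CTTTGAA and 13% held CAGCTG. The windows of Ascl2, Olfm4, Igfbp4, Cdca7 and Prom1 held none of them. Shown are Ascl2 and Tnfrsf19, the members whose log2 fold change ranged most widely between the experiments, and Scn2b, the other member with a match, read 5′ to 3′ on the gene's strand with matches in capitals. The Ascl2 window is chr7:142969265-142969514 (minus strand), the Scn2b window chr9:45117626-45117875 (plus strand) and the Tnfrsf19 window chr14:61037988-61038237 (minus strand), which precedes an internal start site of that gene.
Ascl2: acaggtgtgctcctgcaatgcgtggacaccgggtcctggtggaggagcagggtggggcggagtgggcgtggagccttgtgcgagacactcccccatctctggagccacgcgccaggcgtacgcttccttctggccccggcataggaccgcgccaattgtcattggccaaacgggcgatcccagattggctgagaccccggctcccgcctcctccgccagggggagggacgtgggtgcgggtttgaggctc
Scn2b: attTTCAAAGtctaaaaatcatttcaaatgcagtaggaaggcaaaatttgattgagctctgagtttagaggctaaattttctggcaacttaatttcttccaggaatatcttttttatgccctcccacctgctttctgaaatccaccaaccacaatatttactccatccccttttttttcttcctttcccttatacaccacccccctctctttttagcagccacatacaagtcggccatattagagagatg
Tnfrsf19: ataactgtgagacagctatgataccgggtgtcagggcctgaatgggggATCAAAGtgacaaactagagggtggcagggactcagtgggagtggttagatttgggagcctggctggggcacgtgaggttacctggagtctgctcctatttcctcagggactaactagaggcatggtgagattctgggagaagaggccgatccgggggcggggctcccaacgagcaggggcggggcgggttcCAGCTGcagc
In Scn2b, CTTTGAA lies on the opposite strand 247 bases before the start site. In Tnfrsf19, CTTTGAT lies on the opposite strand 202 bases and CAGCTG 10 bases before the start site, and a window at the upstream start of this gene held no match. A match of these letters is a description and was not tested as a binding site.

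In crypts, all 10 signature genes had a log2 fold change below 0 after Cul4b deletion, from -0.97 (Igfbp4) to -0.33 (Slc12a2), with a median of -0.61 beside -0.0115 over the 13427 genes tested, of which 51.1% were below 0. The transcripts of 5 members fell at an adjusted p under 0.05 (edgeR quasi-likelihood test), namely Lgr5, Ascl2, Igfbp4, Scn2b and Cdca7, whereas 2.66% of all genes were called lower and 6.96% were called in either direction. Of the 934 genes called in the crypts 577 were higher, or 324 of 633 with scaling by library size only, where Lgr5 and Scn2b were the only members called. Every KO library was below every WT library for 6 members, the 5 called ones and Tnfrsf19, against 8.79% of all genes. At an unadjusted p under 0.05, 9 members were lower, against 14.6% of all genes. In the plot of values by library, the KO points of these genes sit below the WT points by less than a log10 unit.

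**Figure D1:**
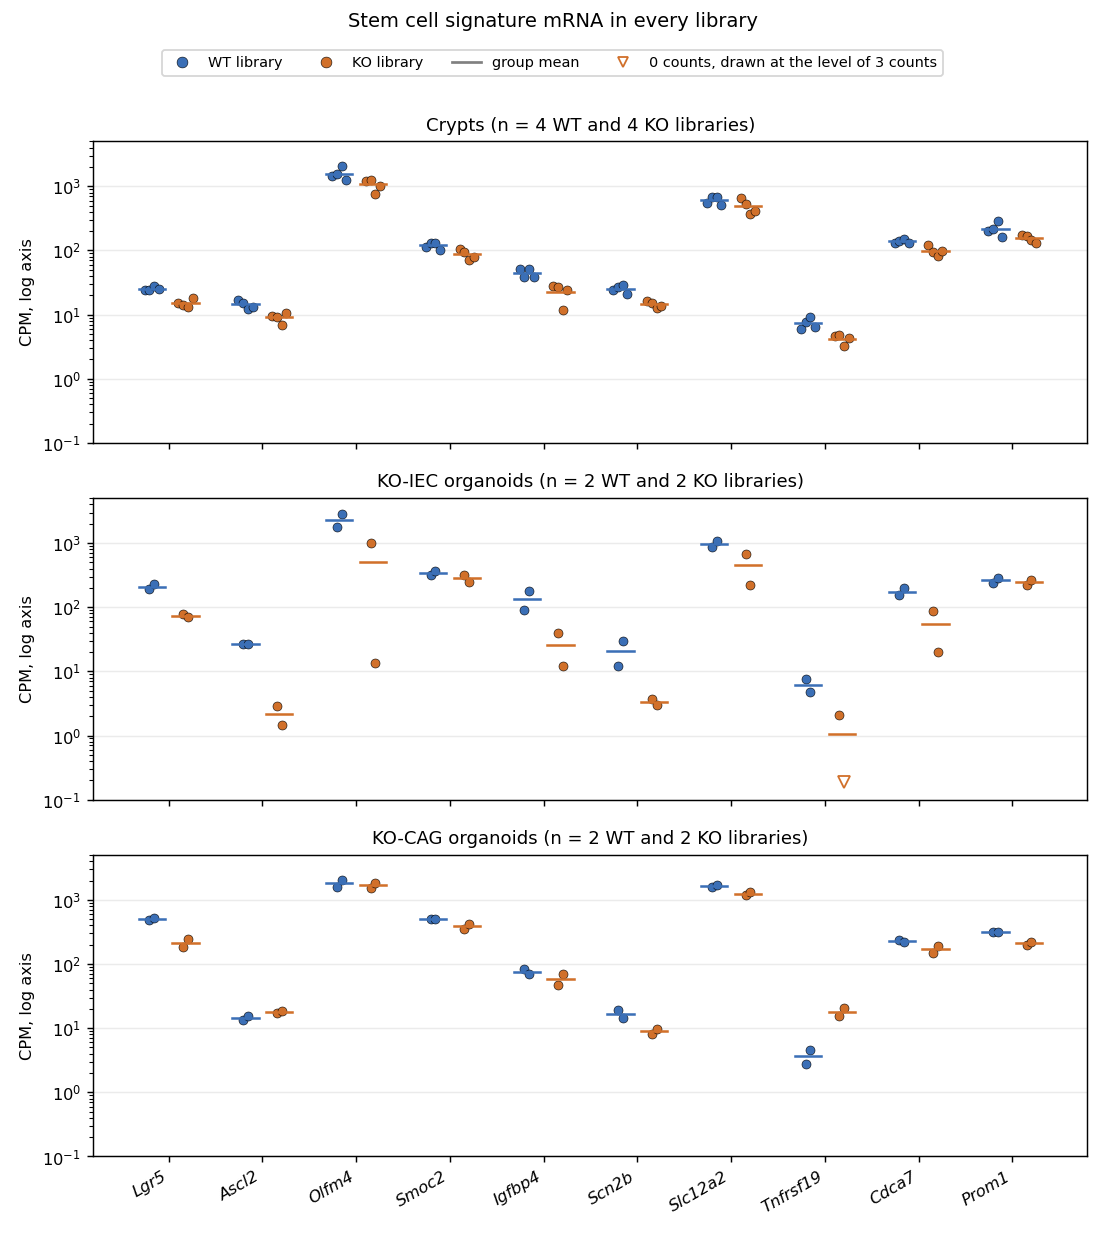
Level of the 10 stem cell signature genes in every library of crypts (top), KO-IEC organoids (middle) and KO-CAG organoids (bottom), in TMM-scaled CPM on a log axis, with WT libraries in blue, KO libraries in orange and short lines at group means. Lgr5 in KO libraries lies below all WT libraries in each panel, Tnfrsf19 lies above them in KO-CAG organoids only, and the open triangle marks the KO-IEC library with 0 Tnfrsf19 counts.

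Lgr5 (ENSMUSG00000020140, chromosome 10, 115450311 to 115587780), the R-spondin receptor that amplifies Wnt signaling, was at 24.5, 24.2, 27.5 and 24.9 CPM in the WT crypt libraries 1 to 4 and at 15.0, 14.1, 13.1 and 18.4 CPM in the KO libraries. The WT values were tightly grouped, and the highest KO library stayed well below the lowest WT library. The log2 fold change was -0.74 (SE 0.13, adjusted p = 0.0379, edgeR), which left 60.0% of the WT mean. Ascl2 (ENSMUSG00000009248, chromosome 7, 142966829 to 142969264), the basic helix-loop-helix factor that acts with Wnt signals to set stem cell identity, was at 17.1, 15.1, 12.3 and 13.2 CPM in WT and at 9.38, 9.14, 6.98 and 10.7 CPM in KO crypts. Its groups did not overlap either, and its log2 fold change was -0.67 (SE 0.17, adjusted p = 0.0499, edgeR). Ascl2 was the called member nearest to the threshold and Tnfrsf19, at an adjusted p of 0.0504 (edgeR), the uncalled member nearest to it.

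The secreted products moved unequally. Igfbp4 (chromosome 11, 99041244 to 99054392), which binds insulin-like growth factors and also modulates Wnt receptors, had the largest fold change of the set in crypts. It was at 50.7, 38.7, 51.2 and 38.7 CPM in WT and at 28.3, 27.0, 12.0 and 24.3 CPM in KO crypts, a log2 fold change of -0.97 (SE 0.24, adjusted p = 0.0490, edgeR). KO library 3 had the lowest value of this gene. Olfm4 (chromosome 14, 80000302 to 80021930 in this table), a secreted glycoprotein and Notch-responsive stem cell marker, was at 1440, 1572, 2046 and 1244 CPM in WT and at 1207, 1276, 769 and 1028 CPM in KO crypts. The KO library 2 lay above WT library 4, and the log2 fold change of -0.56 (SE 0.20) had an adjusted p of 0.10 (edgeR). Smoc2 (chromosome 17, 14279506 to 14404790), a matricellular calcium-binding protein, had a log2 fold change of -0.46 (SE 0.14, adjusted p = 0.0656, edgeR), with WT between 103 and 132 CPM and KO between 71.6 and 105 CPM.

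Among the membrane proteins, Scn2b (chromosome 9, 45117782 to 45130070), a sodium channel beta subunit, was at 24.3, 26.8, 29.4 and 21.0 CPM in WT and 16.6, 15.2, 12.7 and 13.4 CPM in KO crypts. All KO values were lower than all WT values, and the log2 fold change was -0.81 (SE 0.14, adjusted p = 0.0379, edgeR). Tnfrsf19 (chromosome 14, 60963875 to 61046490), also called Troy, a Wnt-induced receptor that associates with Lgr5, was at 5.98, 7.62, 9.25 and 6.42 CPM in WT and at 4.64, 4.72, 3.28 and 4.31 CPM in KO crypts. These values rest on 31 to 116 counts per library, and the log2 fold change was -0.78 (SE 0.20). Slc12a2, the basolateral sodium, potassium and chloride cotransporter NKCC1, had overlapping groups of 518 to 691 CPM in WT and 366 to 648 CPM in KO crypts, with a log2 fold change of -0.33 (SE 0.19, adjusted p = 0.263, edgeR). Prom1 (chromosome 5, 43993620 to 44102032), the pentaspan membrane glycoprotein CD133, ranged from 160 to 287 CPM in WT libraries and from 131 to 175 CPM in KO libraries, with a log2 fold change of -0.48 (SE 0.18, adjusted p = 0.101, edgeR). Cdca7 (chromosome 2, 72476159 to 72486893), a nuclear chromatin protein induced in cycling cells, was at 132, 139, 151 and 133 CPM in WT and 121, 95.4, 82.3 and 98.0 CPM in KO crypts. It fell by 0.48 on the log2 scale (SE 0.12, adjusted p = 0.0491, edgeR), the smallest change among the called members.

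The exact two-sided permutation test over libraries gave 0.0286, the smallest p that 4 against 4 libraries allow, for the 6 members without overlap, and 0.0571 to 0.143 for the other 4. The KO libraries themselves were not alike. The median difference of log2 CPM from the WT mean over the members was -0.96 in KO library 3 and -0.48, -0.56 and -0.59 in KO libraries 1, 2 and 4. All 10 members were below every WT library in KO libraries 3 and 4, and 7 of 10 in KO libraries 1 and 2. The share of all genes with this pattern was not counted for single KO libraries, so these counts are descriptions. The heat map of single KO libraries shows that the crypt values are shallow and spread over the whole set, and that only Slc12a2 in KO library 1 lay above its WT mean.

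**Figure D2:**
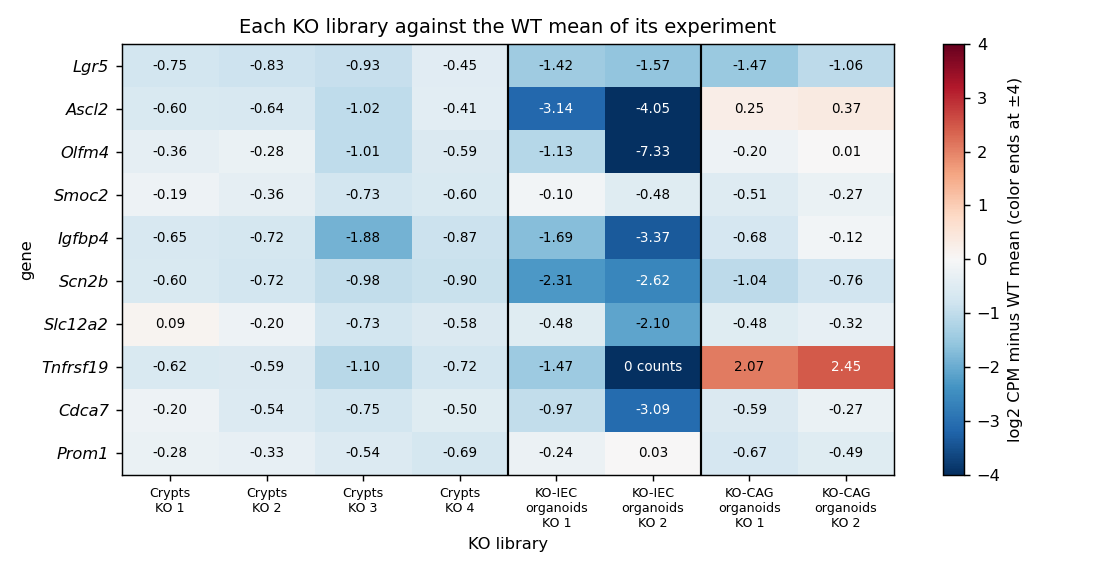
Difference of log2 CPM between each KO library (columns) and the mean of the WT libraries of its experiment, for each signature gene (rows), with blue for lower and red for higher values and the color scale ending at -4 and 4. KO-IEC organoid library 2 has the largest decreases, including -7.33 for Olfm4, and Tnfrsf19 is red in both KO-CAG organoid libraries. The cell with 0 Tnfrsf19 counts carries no value.

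Other measures moved with genotype in the crypts. The summed level of 7 enterocyte markers was 1897 to 8181 CPM in WT and 6718 to 15372 CPM in KO crypts, and all 7 had a log2 fold change above 0 with none called (6 higher at an unadjusted p under 0.05, against 17.4% of all genes, edgeR). With the enterocyte score as a covariate, 0 members were called (adjusted p = 0.516 to 0.942, edgeR). Only 1 of the 13427 genes tested was called in that fit, so the absence of calls says nothing particular to the members. Lgr5 stayed at -0.70 and Ascl2 at -0.69 on the log2 scale, while Igfbp4 moved to -0.65, Scn2b to -0.45, Cdca7 to -0.26 and Olfm4 to -0.052. Proliferation markers were at 1412 to 1824 CPM in WT and 1088 to 1772 CPM in KO crypts. Of their log2 fold changes 7 of 7 were below 0 with 0 called (3 lower at an unadjusted p under 0.05, against 14.6% of all genes, edgeR). The sums of 6 Paneth cell markers were 10405 to 18766 CPM in WT and 2045 to 18023 CPM in KO crypts, with the lowest in KO library 3.

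Mitochondrial ribosomal RNA (mt-Rnr1 and mt-Rnr2) separated the crypt libraries into 3 levels, at 18.6 to 27.5 CPM in WT library 1 and KO libraries 1, 2 and 3, at 831 and 1104 CPM in WT library 4 and KO library 4, and at 2731 and 2734 CPM in WT libraries 2 and 3. Within the lowest level, the difference of mean log2 CPM was -0.79 for Lgr5, -1.0 for Ascl2, -1.27 for Igfbp4, -0.71 for Scn2b and -0.42 for Cdca7. Within the middle level it was -0.43, -0.29, -0.67, -0.64 and -0.44 for the same genes in the same order, each from 1 library per genotype. All 10 members were below 0 within both levels. WT library 1 was the only WT library of the lowest level, and the share of all genes below 0 within a level was not counted. With the level as a covariate, 0 members and only 2 of all genes were called (adjusted p of members 0.195 to 0.629, edgeR). The calls also rested on single libraries. Leaving out WT library 1, 2 or 3 or KO library 2 or 3 left 0 called members, whereas leaving out WT library 4 gave 8, KO library 1 gave 7 and KO library 4 gave 2. All log2 fold changes of the members were below 0 each time, beside medians over all genes of -0.0159 to 0.0022. The calls over all genes moved as well. They were 20, 3 and 11 without WT library 1, 2 or 3 and 2 without KO library 2. Without WT library 4 they were 1864, and without KO library 1 they were 2468. The counts without KO library 3 or 4 lay within the range of 2 to 2468.

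In KO-IEC organoids the signature genes were again all below 0, with a median log2 fold change of -1.92 beside -0.0103 over 13938 genes (51.2% of them below 0), and no member called. Only Cul4b was called in that experiment (0.00717% of genes tested, edgeR), and 4 members, Lgr5, Ascl2, Igfbp4 and Scn2b, were lower at an unadjusted p under 0.05 against 2.07% of all genes. The same 4 were called by the DESeq2 Wald test. Every KO library was below every WT library for 9 of 10 members, a pattern of 19.4% of all genes with 2 libraries per group. The adjusted p (edgeR) was 0.856 for each of these 9 and 0.908 for Prom1.

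Lgr5 was at 190 and 227 CPM in WT and at 77.7 and 69.9 CPM in KO organoids. Replicates of this gene lay close together in both groups, and the log2 fold change was -1.50 (SE 0.18, unadjusted p = 0.0004, edgeR). Ascl2 was at 26.45 CPM in both WT libraries, with 460 and 399 counts, and at 2.89 and 1.48 CPM in the KO libraries, with 48 and 22 counts. Its log2 fold change of -3.59 (SE 0.39, unadjusted p = 0.0003, edgeR) was the largest of the set, which left 8.26% of the WT mean. Scn2b, at 12.1 and 29.7 CPM in WT and 3.73 and 2.97 CPM in KO organoids, and Igfbp4, at 89.5 and 181 CPM in WT and 39.2 and 12.2 CPM in KO organoids, had log2 fold changes of -2.63 (SE 0.52) and -2.39 (SE 0.65). For both genes the higher KO value was below the lower WT value, although the WT libraries differed from each other by more than for Lgr5 or Ascl2. The KO libraries of Igfbp4 also lay far apart. Its log2 fold change was -3.47 without KO library 1 and -1.78 without KO library 2.

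For Olfm4, Cdca7, Slc12a2 and Tnfrsf19 the KO-IEC cultures also differed widely from each other. Olfm4 was at 1759 and 2816 CPM in WT, at 1018 CPM in KO library 1 and at 13.7 CPM in KO library 2, where 203 counts were found against 16911 in KO library 1. Cdca7 was at 154 and 197 CPM in WT and at 88.7 and 20.3 CPM in KO, and Slc12a2 at 859 and 1066 CPM in WT and 687 and 222 CPM in KO. For each of these genes KO library 1 lay moderately and KO library 2 far below WT. Tnfrsf19 had 133 and 72 counts in WT, 35 in KO library 1 and 0 in KO library 2, whose floor is 3 counts. Smoc2 (321.7 and 372 CPM in WT, 321.6 and 248 CPM in KO) had a log2 fold change of -0.28 (SE 0.20), and Prom1 (237 and 289 CPM in WT, 221 and 267 CPM in KO) of -0.11 (SE 0.20). These were the only members at more than 80% of the WT mean, and their log2 standard errors were small beside those of Olfm4 (1.66) and Tnfrsf19 (1.31).

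The median difference from the WT mean was -1.27 on the log2 scale in KO-IEC organoid library 1 and -2.86 in library 2. Those libraries also differed in markers of other cells. Proliferation markers summed to 1692 CPM in KO library 1 and 605 CPM in KO library 2 (1575 and 1591 CPM in WT), and enterocyte markers to 3801 and 11992 CPM (5447 and 9423 CPM in WT). Goblet cell markers summed to 1620 and 6515 CPM (1515 and 1768 CPM in WT) and enteroendocrine markers to 246 and 807 CPM (237 and 409 CPM in WT). The part of these differences in the signature values was not tested. Without KO library 1, 9 members were below 0, with log2 fold changes of -4.15 for Ascl2, -7.39 for Olfm4 and -0.49 for Smoc2. Without KO library 2 all 10 were below 0, and the values of these 3 genes were -3.19, -1.17 and -0.11. Each of these fits takes the single remaining KO library to vary as the WT libraries do.

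In KO-CAG organoids the signature split, with 6 members lower, 1 higher and 3 not called. Lgr5, Scn2b, Prom1, Cdca7, Slc12a2 and Smoc2 fell and Tnfrsf19 rose (edgeR, adjusted p under 0.05), in an experiment where 13.4% of the 13598 genes were called lower, 18.1% higher and 31.5% in all. The median log2 fold change of the members was -0.39 beside 0.0012 over all genes, and 8 members were below 0 against 49.9% of all genes. Groups did not overlap for 7 members lower and 2 members higher in KO, where 34.2% and 35.5% of all genes show these patterns.

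Lgr5 had the largest decrease, from 493 and 523 CPM in WT to 183 and 244 CPM in KO organoids. The log2 fold change was -1.25 (SE 0.13, adjusted p = 0.0001, edgeR), equal to 42.1% of the WT mean, and it was called in each of the 11 alternatives run for it in this experiment. Scn2b was at 19.2 and 14.6 CPM in WT and 8.04 and 9.78 CPM in KO, a log2 fold change of -0.91 (SE 0.20, adjusted p = 0.0069, edgeR). The other 4 lowered members moved less. Prom1 went from 312 and 314 to 197 and 223 CPM (log2 fold change -0.57, SE 0.09, adjusted p = 0.0011, edgeR) and Cdca7 from 236 and 220 to 151 and 189 CPM (-0.42, SE 0.11, adjusted p = 0.0154, edgeR). Slc12a2 went from 1579 and 1694 to 1176 and 1311 CPM (log2 fold change -0.40, SE 0.10, adjusted p = 0.0116, edgeR) and Smoc2 from 507 and 502 to 354 and 418 CPM (-0.38, SE 0.10, adjusted p = 0.0154, edgeR).

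Tnfrsf19 stood apart, at 2.76 and 4.52 CPM in WT and 15.7 and 20.4 CPM in KO organoids, on 23 and 35 against 113 and 213 counts. Both KO values exceeded both WT values several-fold, and the log2 fold change was 2.32 (SE 0.26, adjusted p = 0.0002, edgeR). Ascl2 was at 13.2 and 15.6 CPM in WT and at 17.2 and 18.6 CPM in KO, without overlap but with an adjusted p of 0.161 (log2 fold change 0.32, SE 0.16, edgeR). Igfbp4 (82.5 and 70.0 CPM in WT, 47.4 and 69.7 CPM in KO) had a log2 fold change of -0.37 (SE 0.16, adjusted p = 0.10, edgeR), and Olfm4 (1569 and 2051 CPM in WT, 1558 and 1804 CPM in KO) of -0.11 (SE 0.13, adjusted p = 0.569, edgeR). The summed enterocyte markers were at 3940 and 4342 CPM in WT and 11550 and 9192 CPM in KO organoids with 6 of 7 called higher. Paneth cell markers summed to 4913 to 5345 CPM in WT and 8192 to 8755 CPM in KO (5 of 6 called higher), goblet cell markers to 4433 to 4648 and 7120 to 7787 CPM (5 of 6), and enteroendocrine markers to 623 to 645 and 1305 to 1422 CPM (5 of 5). The proliferation markers were at 1779 and 1759 CPM in WT and 1248 and 1574 CPM in KO with 2 of 7 called lower. Their part in the signature values was not tested. Leaving out WT library 1 lost the calls of Smoc2 and Cdca7, leaving out WT library 2 those of Smoc2 and Slc12a2, and leaving out WT library 2 or KO library 2 added Igfbp4. In a fit of all 16 libraries, which share an estimate of spread, only Lgr5 was called here.

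**Figure D3:**
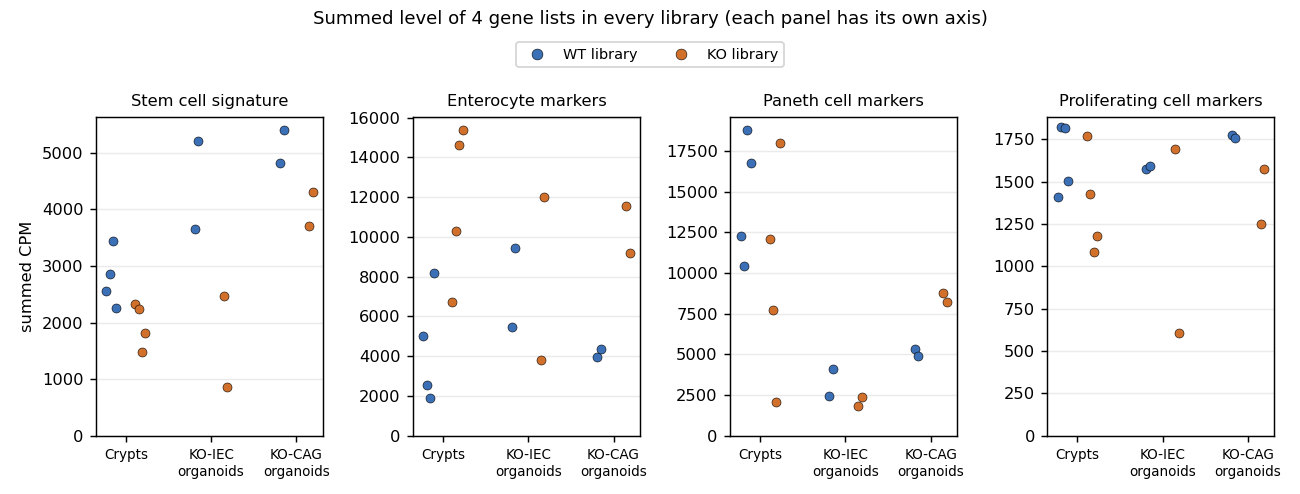
Summed CPM of the stem cell signature and of the enterocyte, Paneth cell and proliferating cell marker lists in every library (WT blue, KO orange), each panel with its own linear axis from 0. The signature sum is lower in all KO organoid libraries than in WT libraries of the same experiment, overlaps between crypt groups, and falls to 857 CPM in KO-IEC organoid library 2, where proliferation markers are at 605 CPM.

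Set side by side, 8 members had a log2 fold change below 0 in all 3 experiments, against 25.5% of the 12478 genes tested in each. Of them 4, Lgr5, Scn2b, Igfbp4 and Cdca7, had every KO library below every WT library each time, against 2.57% of these genes. At the 2-fold threshold of the study added to the adjusted p, no member was called in crypts (1.79% of all genes) or KO-IEC organoids (0.00717%), and Lgr5 and Tnfrsf19 were called in KO-CAG organoids (8.6%). Lgr5, Scn2b and Cdca7 were called lower in both crypts and KO-CAG organoids, against 1.15% of these genes. Ascl2 and Igfbp4 were called in crypts but not in KO-CAG organoids, and Smoc2, Slc12a2, Prom1 and Tnfrsf19 in KO-CAG organoids but not in crypts. A call in a single experiment does not show that the effects differ, so the difference between experiments was tested as an interaction in a fit of all 16 libraries over 15585 genes (edgeR).

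**Figure D4:**
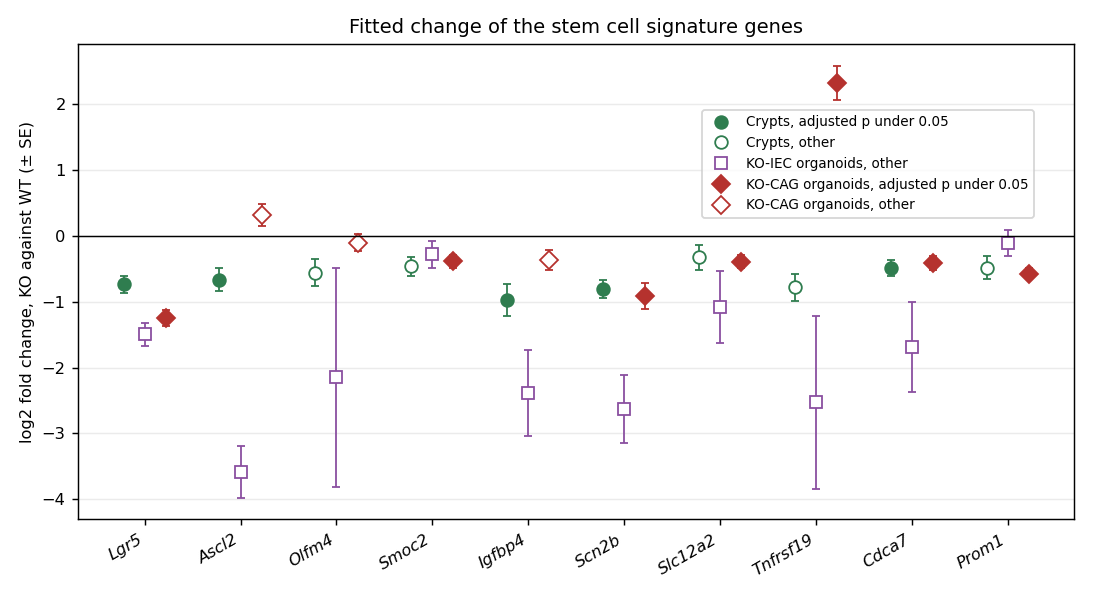
Fitted log2 fold change of KO against WT with its SE for each signature gene in crypts (circles), KO-IEC organoids (squares) and KO-CAG organoids (diamonds), filled where the adjusted p was under 0.05. Lgr5 and Scn2b are below 0 in all 3 experiments, whereas Ascl2 ranges from -3.59 to 0.32 and Tnfrsf19 from -2.53 to 2.32.

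Ascl2 was the single member whose change differed by that test. Its decrease in KO-IEC organoids exceeded that in crypts by 2.91 on the log2 scale (SE 0.32, adjusted p = 0.0062, edgeR), where 0.00642% of all genes were called, and its change in KO-IEC organoids was lower than in KO-CAG organoids by a log2 difference of -3.88 (SE 0.37, adjusted p = 0.0011, edgeR), where 0.385% were called. For Tnfrsf19, the difference between KO-IEC and KO-CAG organoids was -4.82 (SE 1.02, adjusted p = 0.0659, edgeR) and that between crypts and KO-CAG organoids -3.08 (SE 0.85, adjusted p = 0.126, edgeR), so neither passed. For Lgr5 the 3 differences were 0.75 (SE 0.21), 0.52 (SE 0.20) and -0.23 (SE 0.23), with adjusted p of 0.443, 0.258 and 0.776 (edgeR). No member differed between crypts and KO-CAG organoids, where 0.372% of all genes were called. Lgr5, Ascl2 and Tnfrsf19 had an unadjusted p under 0.05 there (edgeR). The share of all genes at that unadjusted threshold was not counted, so the 0.372% is no measure for these 3.

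Other genes of the crypt base had mostly lower fitted values in crypts and KO-IEC organoids and went both ways in KO-CAG organoids. A list of 23 further crypt-base genes, of which 22 were tested, had 19 log2 fold changes below 0 in crypts, against 51.1% of all genes. The median was -0.27, and none was called (6 lower at an unadjusted p under 0.05, against 14.6% of all genes, edgeR). The smallest p belonged to Kcnq1, a potassium channel (log2 fold change -0.42, adjusted p = 0.0692, edgeR), Ephb3, the receptor that positions cells along the crypt (-0.53, adjusted p = 0.10, edgeR), and Axin2, a feedback target of Wnt signaling (-0.34, adjusted p = 0.108, edgeR). In KO-IEC organoids 21 of 22 were below 0, against 51.2% of all genes, with a median of -0.91. None was called (10 lower at an unadjusted p under 0.05, against 2.07% of all genes, edgeR). The smallest p belonged to Soat1 (-1.05), Phlda1 (-1.45) and Rgmb (-1.47), each at an adjusted p of 0.856 (edgeR). In KO-CAG organoids the list divided, with 6 of 22 lower, 4 higher and a median of -0.041, where 13.4% of all genes were called lower and 18.1% higher. Aqp4, a water channel, fell by 0.98 on the log2 scale (adjusted p = 0.0001, edgeR), while the Wnt targets Cd44 and Sp5 rose by 0.81 and 1.2 (adjusted p = 0.0005 and 0.0011, edgeR).

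Genes of the Wnt receptor complex and its effectors, 14 of 15 tested, showed no common direction. None was called in crypts, with a median log2 fold change of 0.046. At an unadjusted p under 0.05, 1 was lower and 3 were higher, where 14.6% of all genes were lower and 17.4% higher (edgeR). Apc and Gsk3b, of the destruction complex, and the coreceptor Lrp6 had the smallest p, with log2 fold changes of 0.45, 0.32 and 0.40 (adjusted p = 0.0620, 0.0691 and 0.0980, edgeR). In KO-IEC organoids none was called and the median was 0.074. At an unadjusted p under 0.05, 2 were lower and 3 higher, where 2.07% of all genes were lower and 2.6% higher (edgeR). There the TCF factor Tcf7 averaged 16 ± 3.48 CPM in WT and 3.22 ± 2.17 CPM in KO (SD, n = 2 each). Its log2 fold change was -2.31, that of the Wnt receptor Fzd5 0.83 and that of the ligand Wnt3 -1.19. In KO-CAG organoids 5 of 14 fell and 2 rose with a median of -0.079, again against 13.4% and 18.1% of all genes. Ccnd1, the cyclin of G1 phase, rose by 0.66 (adjusted p = 0.0003, edgeR), and Fzd5 and Myc fell by 0.58 and 0.34 on the log2 scale (adjusted p = 0.0022 and 0.0105, edgeR).

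Of 5 genes linked to reserve or revival stem cells, which serve regeneration after loss of Lgr5+ cells, Clu was the only one called, in KO-CAG organoids. This count of 1 in 5 is near the share over all genes there, of which 18.1% were called higher and 31.5% in either direction. Clu, the secreted chaperone clusterin, averaged 24.0 ± 18.3 CPM in WT and 112 ± 27.7 CPM in deleted KO-CAG cultures (SD, n = 2 each), and its log2 fold change was 2.22 (adjusted p = 0.0013, edgeR). In KO-IEC organoids the corresponding means were 4.53 ± 2.38 and 34.8 ± 8.20 CPM (SD, n = 2 each), with a log2 fold change of 2.93 and an adjusted p of 0.856 (edgeR). The list had 2 of 4 tested genes below 0 in crypts (median -0.052), 4 of 5 in KO-IEC organoids (median -0.19) and 2 of 5 in KO-CAG organoids (median 0.13).

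The genes whose deviations from WT were most like those of Lgr5 were sought over all 16 libraries, as the smallest root mean square distance of WT-centred log2 CPM among 12477 genes tested in every experiment. Among the 5 nearest were 1700040L02Rik (distance 0.278), Pde1b (0.281), Colca2 (0.308) and Slc16a12 (0.309). Among the other members Scn2b was the nearest, at rank 116 with a distance of 0.444, followed by Slc12a2 at rank 287 and Cdca7 at rank 433. Ascl2 was at rank 8875, and Olfm4 and Tnfrsf19 were among the most distant genes, at ranks 12123 and 12230. Squared distances weigh extreme libraries heavily. In KO-IEC organoid library 2, Olfm4 lay -7.33 and Lgr5 -1.57 from the WT mean on the log2 scale, and Tnfrsf19 had 0 counts. In KO-CAG organoid libraries 1 and 2, Tnfrsf19 lay at 2.07 and 2.45 and Lgr5 at -1.47 and -1.06. Over all 16 libraries the members thus varied among themselves more than the shared sign in crypts shows. WT-centred profiles share the WT libraries and their depth, so these distances are descriptions.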

How the data were processed

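RNA-seq libraries of crypts and organoids were made and sequenced at Novogene. As raw data the authors deposited read counts per gene, 1 table per experiment, with a gene length column. The submitters' processing notes name HISAT2 2.0.5 and featureCounts 1.5.0-p3. Strand use, genome build and annotation are not given in the sources used here. Positions of 9, 10 and 9 of the 10 members in the crypt, KO-IEC and KO-CAG tables equal those of GENCODE M21 on GRCm38, the exception being Olfm4, and positions are printed as the tables give them. The methods of the study call its replicates biological, and no label ties a library to an animal or culture.

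Groups and replicate numbers came from the sample labels. Each experiment was fitted by itself without a block, after filterByExpr and TMM scaling, by quasi-likelihood F tests (edgeR 4.0.16, R 4.3.3) and Benjamini-Hochberg adjustment over all genes tested. Called means an adjusted p under 0.05. The study's methods used DESeq2 and added a 2-fold threshold, and both are alternatives here (DESeq2 1.42.0). A prior count of 2 was added for log2 CPM. Single members were also compared by an exact two-sided permutation test, whose smallest p is 0.0286 for 4 against 4 libraries and 0.333 for 2 against 2. All 10 members are named in every experiment. From the crypt-base and Wnt lists, the 3 genes with the smallest p in each experiment are named, and from the profile search the 5 nearest to Lgr5, of which 1 is not reported here. The members, lists and alternatives were chosen with earlier results of these data known. The scripts were tested on simulated data. WT and KO libraries share replicate numbers, but same-numbered crypt libraries deviated together in no regular way, with correlations of -0.044, 0.19, -0.40 and 0.43. Alternatives were DESeq2's size factors, plain library-size scaling, testing without a filter on low counts, a minimum of 10 counts per library, DESeq2's Wald test, a replicate block, all 16 libraries in a single fit, covariates for the mitochondrial ribosomal RNA level (bounds at 100 and 2000 CPM) and for enterocyte markers, and leaving out each library.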

Additional observations from a re-analysis of the deposited data

Results flagged for a closer look

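The change of Ascl2 after Cul4b deletion differed between experiments by an interaction test. The log2 fold change in crypts was higher than that in KO-IEC organoids by 2.91 (SE 0.32, adjusted p = 0.0062, edgeR), with 4 of 4 KO crypt libraries and 2 of 2 KO-IEC organoid libraries below all of their WT libraries. The log2 fold change in KO-IEC organoids differed from that in KO-CAG organoids by -3.88 (SE 0.37, adjusted p = 0.0011, edgeR), where both KO-CAG organoid libraries were above both WT libraries. Crypts and KO-IEC organoids share the genotype and differ in being tissue or culture. KO-IEC and KO-CAG organoids differ in the Cre driver and in whether deletion took place in the animal or was induced in culture. All 3 experiments were also prepared separately, so in neither comparison can these differences be told apart from preparation or from each other. No signature gene had a library set far apart from its group by Dixon's criterion in the crypts, over 20 groups of 4 libraries.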

How the results depend on the processing

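Of 399 values of single members under the alternatives, 291 kept direction and side of the threshold, 65 lost the call, 38 gained it and 5 changed direction. In crypts (5 members and 934 genes called) the members called were 3 with DESeq2's size factors, 2 with library size only, 8 with the DESeq2 Wald test and 0 each with the 2-fold threshold, the mitochondrial ribosomal RNA level, the enterocyte covariate and, chosen after seeing the data, without WT libraries 2 and 3 (adjusted p = 0.391 to 0.812, edgeR). The genes called were 790 with DESeq2's size factors, 633 with library size only, 1479 without a filter and 2355 with Wald. They were 1660 in the fit of all 16 libraries, 240 at 2-fold, and 2, 1 and 1 under the last 3. With the replicate block, 0 members and 4 genes were called in crypts (adjusted p of members 0.089 to 0.269, edgeR), whereas in the organoids the block moved no count by over 1.5 times. The numbers share no stated animal or culture, and 2 pairs cannot show pairing in the organoids. Leaving out 1 library gave 0 to 8 members and 2 to 2468 genes in crypts, 0 to 8 and 0 to 2322 in KO-IEC organoids, and 5 to 8 and 2792 to 4721 in KO-CAG organoids. In KO-IEC organoids (0 members and 1 gene) there were 8 members and 223 genes without a filter, 4 and 26 with Wald, and 3 and 18 in the fit of all libraries. In KO-CAG organoids (7 members and 4278 genes) there were 2554 genes with Wald, 1 member (Lgr5) and 477 genes in the fit of all libraries, and 2 members (Lgr5 and Tnfrsf19) and 1169 genes at 2-fold. Direction changed in crypts for Slc12a2 (0.14) and Prom1 (0.040) with the enterocyte covariate, in KO-IEC organoids for Prom1 (0.031 without WT library 2, 0.018 without KO library 1, and -0.25 to 0.031 over libraries left out) and in KO-CAG organoids for Olfm4 (0.094 without WT library 2, and -0.30 to 0.094 over libraries left out). None of these values was called. The cause was not tested. Library-size scaling moved the median of all crypt genes from -0.0115 to -0.0944, the higher share of called genes from 577 of 934 to 324 of 633, and the members to -1.04 to -0.41. Tnfrsf19 in KO-IEC organoids could not be fitted with at least 10 counts in every library, as it has a library at 0. Interaction counts stayed at 1, 0 and 1 under 3 alternatives. Groups of 2 libraries and the difference between the KO-IEC cultures limit the precision in organoids.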
